A study of Homo sapiens with 12 samples.

Results

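The 38 genes described here encode proteins that start mitosis, build the spindle, hold the checkpoint until chromosomes are attached, separate the chromosomes and divide the cell. They were listed by symbol and kept where a probe was detected (detection p under 0.01) on at least 4 of the 12 arrays, and all 38 of the 38 listed genes met this, among 10562 named genes tested. Every one of the 38 probes used was in fact detected on all 12 arrays. The samples were 3 groups of 4 Illumina bead arrays of SNUhES3, an established line of human embryonic stem cells (ESCs). The first group was undifferentiated ESCs, kept with basic fibroblast growth factor (bFGF) in a serum replacement medium on mouse STO feeder cells arrested so that they no longer divide. The other groups were embryoid bodies (EBs), floating aggregates grown from detached ESC colonies in that medium without bFGF, after 1 week and after 2 weeks. All groups thus came from 1 line, the labels give no genetic change or drug, and whether a group's 4 arrays hold RNA of separate cultures is not stated. The tests therefore rest on array-to-array spread, which may be technical.

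Entry into mitosis is driven by CDK1 bound to B-type cyclins, and the Aurora and Polo-like kinases act beside it on centrosomes, chromosomes and the spindle. The spindle checkpoint, built from the BUB and MAD proteins and the kinase TTK on unattached kinetochores, holds back the anaphase-promoting complex until every chromosome is attached. Most of these genes are transcribed late in the cell cycle, and many carry CCAAT boxes, bound by NF-Y, and a cell cycle homology region (CHR), bound by the DREAM and MuvB complexes that B-MYB and FOXM1 join. Human ESCs have a short G1 phase, and cells that differentiate commonly lengthen it.

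Promoter sequence was set beside the expression values, because most members share these elements while the expression differences between them ran both ways. RefSeq windows of 250 bases before to 50 bases after each gene start (GRCh38.p14) were found for 32 of the 38 members, in 42 windows. TPX2, BUB3, TTK, BIRC5, AURKA and UBE2C were not matched. The CHR words searched were TTTGAA and TTCGAA and the CCAAT box was searched as CCAAT, each on both strands. Overlapping matches were all counted. A CHR word lay in a window of 25 of the 32 members (78.1%), against 19.5% of all 27305 genes with a window. A CCAAT word lay in a window of 26 members (81.2%), against 39.7% of all genes, and both words lay in those of 21 members (65.6%), against 7.85%. The 5 stretches below cover 170 bases before to 30 bases after the start, with CHR and CCAAT words of either strand in capitals. HMMR and BUB1 are shown because they were the most reduced members at 2 weeks, CENPF and CENPE because they were among the most raised, and CCNB1 because it was not called in any comparison.
HMMR promoter, chr5:163460462-163460661, plus strand: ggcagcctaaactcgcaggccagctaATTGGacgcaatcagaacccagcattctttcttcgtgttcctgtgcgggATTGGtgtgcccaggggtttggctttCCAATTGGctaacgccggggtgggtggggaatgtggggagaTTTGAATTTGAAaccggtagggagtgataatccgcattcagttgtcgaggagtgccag
BUB1 promoter, chr2:110678034-110678233, minus strand: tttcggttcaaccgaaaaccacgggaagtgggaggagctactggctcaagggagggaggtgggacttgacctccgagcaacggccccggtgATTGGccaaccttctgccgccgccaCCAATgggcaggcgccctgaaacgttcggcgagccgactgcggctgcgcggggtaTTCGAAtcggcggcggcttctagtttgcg
CENPF promoter, chr1:214603025-214603224, plus strand: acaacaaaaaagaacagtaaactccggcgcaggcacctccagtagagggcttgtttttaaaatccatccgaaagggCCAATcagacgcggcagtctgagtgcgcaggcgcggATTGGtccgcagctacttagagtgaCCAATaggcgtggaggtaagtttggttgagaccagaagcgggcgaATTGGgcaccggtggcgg
CENPE promoter, chr4:103198314-103198513, minus strand: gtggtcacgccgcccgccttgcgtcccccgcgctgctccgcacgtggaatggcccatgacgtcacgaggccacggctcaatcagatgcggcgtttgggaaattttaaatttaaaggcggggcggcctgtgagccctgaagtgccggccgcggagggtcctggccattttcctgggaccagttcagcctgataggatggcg
CCNB1 promoter, chr5:69166980-69167179, plus strand: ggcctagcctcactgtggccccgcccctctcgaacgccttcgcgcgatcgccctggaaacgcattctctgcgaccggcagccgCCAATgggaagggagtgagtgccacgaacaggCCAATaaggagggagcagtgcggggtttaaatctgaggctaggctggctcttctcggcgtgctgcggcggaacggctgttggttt
HMMR holds 2 adjoining TTTGAA words, first bases at -28 and -22 from the start, and 4 CCAAT words in the stretch, of which the last and the one before it overlap by a few bases. BUB1 holds TTCGAA at 2 with CCAAT words at -79 and -54. CENPF holds 4 CCAAT words in the stretch, and its TTTGAA word, at 41, lies past the end of it. CENPE held no word of either kind in its window, and CCNB1 held 2 CCAAT words and no CHR word. Other spellings of these elements were not searched, so a window without a word may still hold the element. Among the members with a window, the 9 that were lower at 2 weeks included 6 with a CHR word and 8 with a CCAAT word, the 3 that were higher included 2 with each, and the 20 that were not called included 17 and 16. These matches describe the letters of the windows and nothing about binding.

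Levels are given as log2 of the background-corrected, quantile-normalized intensity of the brightest kept probe of each gene, and a difference of 1 on this scale is 2-fold. Levels of different genes come from different probes and are not compared. A member was called higher or lower at an adjusted p under 0.05 in limma's test over all 10562 genes. The members' differences were small: the largest on the probes used was 0.62 (HMMR, 1.54-fold lower at 2 weeks than in ESCs). No 95% interval of any member reached 1 on the log2 scale in any of the 3 comparisons, and the farthest bound lay 0.78 from 0. In bulk RNA such as this, fewer cells of a type and less RNA per cell cannot be told apart.

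After 1 week of EB culture, 8 of the 38 members (21.1%) were higher than in ESCs, against 27.1% of all genes tested, and 5 (13.2%) were lower, against 24.8% of all genes. The 8 were CCNA2, CDC25B, BIRC5, CENPA, CENPE, CENPF, NDC80 and ANLN, raised 1.15 to 1.47-fold, and the 5 were BUB1, AURKB, SPC25, HMMR and PTTG1, reduced 1.14 to 1.19-fold. No member was called at 2-fold or more, against 9.16% of all genes called so, and 16 members had an unadjusted p under 0.05. For 34 members (89.5%) the 95% interval of the difference lay within 1.5-fold either way, against 60.3% of all genes. The members' median difference was 0.07, and that of all genes was 0.01.

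After 2 weeks, 5 members (13.2%) were higher than in ESCs, against 30.7% of all genes, and 11 (28.9%) were lower, against 31.8%. BUB3, BIRC5, CDCA8, CENPE and CENPF were the higher ones, by 1.19 to 1.37-fold. The lower ones were AURKA, BUB1, TTK, AURKB, INCENP, SPC25, KIF20A, KIF23, KIF2C, HMMR and ECT2, by 1.13 to 1.54-fold. Again no member was called at 2-fold, against 14.3% of all genes, and 17 members had an unadjusted p under 0.05. The interval lay within 1.5-fold for 32 members (84.2%), against 52.1% of all genes. The median difference of the members was -0.07 and of all genes -0.02.

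Between the first and the second week, 1 member, BIRC5, rose (2.63%), against 12.4% of all genes, and 10 fell (26.3%), against 14.1%. Those that fell, by 1.16 to 1.36-fold, were CDC25B, BUB1, AURKB, INCENP, NDC80, KIF20A, KIF23, HMMR, ANLN and ECT2. At 2-fold no member was called, against 1.38% of all genes, and 15 members had an unadjusted p under 0.05. The interval lay within 1.5-fold for 36 members (94.7%), against 78.8% of all genes. The members' median was -0.15, and that of all genes -0.01. The 3 comparisons share arrays, so their counts are not independent of each other.

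**Figure D1:**
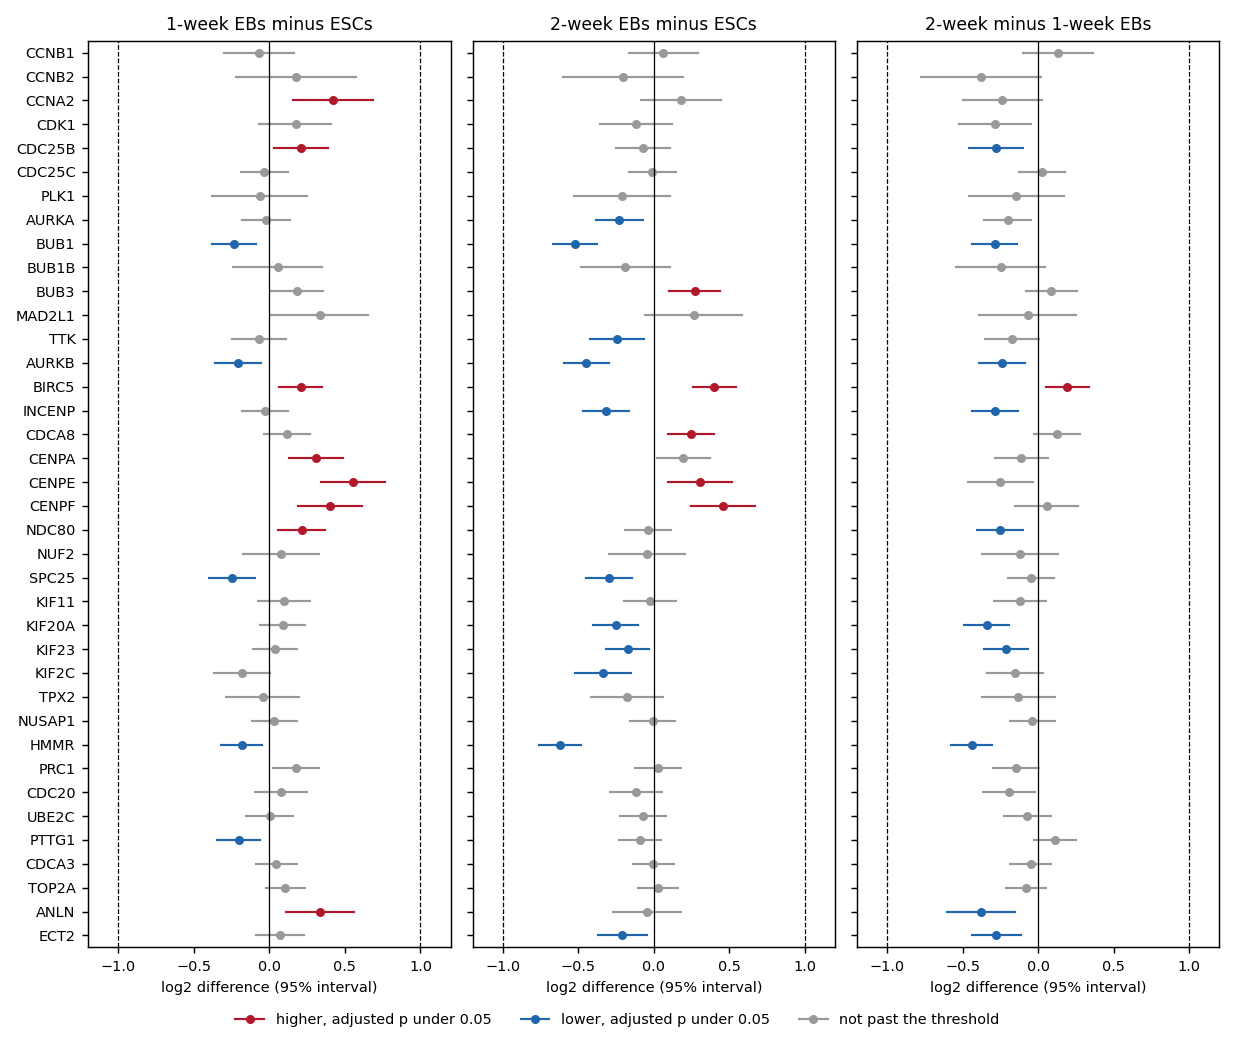
Log2 difference of each of the 38 members in the 3 comparisons (points) with its 95% interval from limma (lines), in red where higher and in blue where lower at an adjusted p under 0.05, and in grey otherwise; the dashed lines mark a 2-fold difference. No interval reaches a dashed line, and the blue points are most numerous in the comparison of 2-week EBs with ESCs, where 11 members were lower.

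These counts depended on how 4 arrays of a group are counted. Over all genes, arrays 1 and 2 resembled each other in ESCs and 1-week EBs, as did arrays 3 and 4, at correlations of at least 0.9969, against 0.9867 to 0.9924 for the other combinations in those groups. In 2-week EBs the same pairs correlated at 0.9918 and 0.9978 and the other combinations at 0.9897 to 0.9949, so only arrays 3 and 4 stood out. With these array pairs as a random block, in a setting chosen with earlier results known, the calls came to 4 higher at 1 week and none of the 5 lower ones, to 2 higher and 6 lower at 2 weeks, and to 2 lower in the second week. The shares of all genes called fell too, to 20% higher and 17.4% lower at 1 week, 24.8% and 24.9% at 2 weeks, and 5.53% and 6.27% in the second week. The members still called were CCNA2, CENPA, CENPE and CENPF at 1 week, BIRC5, CENPF, BUB1, AURKB, INCENP, SPC25, KIF2C and HMMR at 2 weeks, and KIF20A and HMMR in the second week. What the array pairs stand for is not given in the labels.

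Of the genes of mitotic entry, CCNB1, CCNB2, CDK1, CDC25C and PLK1 were called in none of the 3 comparisons, and 3 of the 8 genes of this role were called in any, against 70.8% of all genes tested. CCNB1, a B-type cyclin that activates CDK1, was at 11.12, 10.87, 11.12 and 11.14 on the 4 ESC arrays, 10.92, 10.84, 11.14 and 11.09 after 1 week, and 10.94, 10.98, 11.25 and 11.34 after 2 weeks. The 3 groups overlapped, and its differences from ESCs were -0.07 (SE 0.11, adjusted p = 0.607) and 0.06 (SE 0.11, adjusted p = 0.631). CDK1, the kinase that drives entry, was at 12.09, 12.11, 11.69 and 11.65 in ESCs, 12.17, 12.19, 11.94 and 11.94 after 1 week, and 11.70, 11.74, 11.78 and 11.85 after 2 weeks. Its ESC arrays split into a high and a low pair and spanned the 2-week values. The second-week difference was -0.29 (SE 0.11, adjusted p = 0.0717), with groups that did not overlap and a 95% interval of -0.53 to -0.05. PLK1, the Polo-like kinase of centrosome maturation and spindle assembly, was at 9.97, 9.80, 9.28 and 9.16 in ESCs, 9.48, 9.47, 9.45 and 9.54 after 1 week, and 9.34, 9.46, 9.29 and 9.27 after 2 weeks. Its ESC arrays spanned all the EB values, and the differences from ESCs were -0.06 and -0.21 (adjusted p = 0.731 and 0.228).

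CCNA2, the cyclin of S phase and early mitosis, was the member of this role that rose most. It was at 12.29, 12.28, 11.77 and 11.76 in ESCs, 12.41, 12.33, 12.46 and 12.57 after 1 week, and 12.29, 12.07, 12.25 and 12.21 after 2 weeks. All 1-week arrays lay above all ESC arrays, with a rise of 0.42 (SE 0.12, adjusted p = 0.011), but ESC arrays 3 and 4 lay 0.52 below ESC arrays 1 and 2, and with arrays 1 and 2 alone the difference did not pass the test. CDC25B, a phosphatase that activates CDK1, rose by 0.21 in the first week (adjusted p = 0.0497) and fell by 0.28 in the second (adjusted p = 0.0246). The adjusted p of its rise lay just under the threshold, and the call was lost in most of the settings that left out 1 array. AURKA, the Aurora kinase of centrosomes and spindle poles, was lower at 2 weeks than in ESCs, by 0.23 (SE 0.07, adjusted p = 0.0153), and its other kept probe differed by -0.26. CCNB2, the other B-type cyclin measured, and CDC25C, another phosphatase of CDK1, differed from ESCs by 0.18 and -0.03 at 1 week and by -0.20 and -0.01 at 2 weeks, with no call. The other kept CDC25C probes differed by -0.22 and 0.20 at 2 weeks, in opposite directions, and the other kept CDK1 probe by 0.04, where the probe used differed by -0.12. The 2-week CCNB2 mean of 12.38 ± 0.52 (SD, n = 4) held 1 array at 11.61 and 3 between 12.61 and 12.70.

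**Figure D2:**
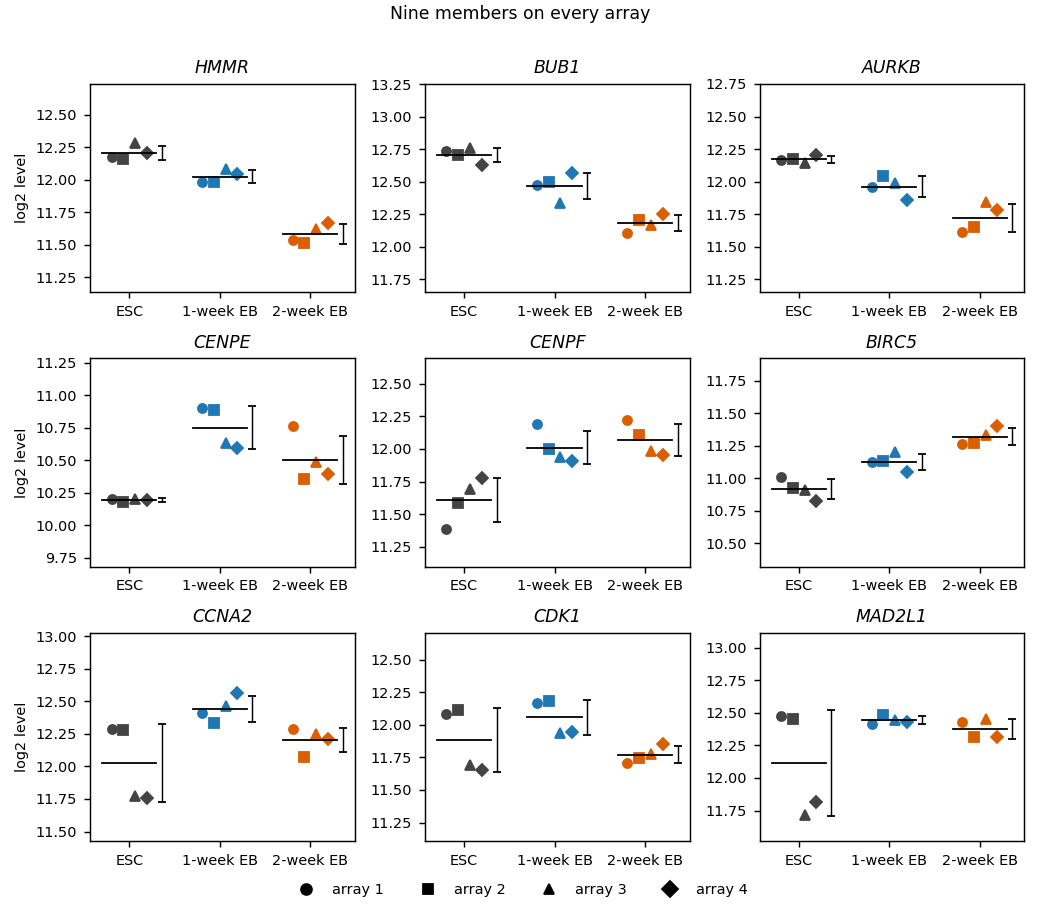
Log2 level of 9 members on each of the 12 arrays (points, with the symbol giving the array number), with the group mean (line) and the SD over 4 arrays (bar beside it). HMMR, BUB1 and AURKB step down over the 3 groups, CENPE, CENPF and BIRC5 lie higher in EBs, and CCNA2, CDK1 and MAD2L1 show 2 high and 2 low ESC arrays.

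Among the spindle checkpoint genes, BUB1 fell in both weeks, TTK was lower and BUB3 higher at 2 weeks, and BUB1B and MAD2L1 were not called. BUB1, a checkpoint kinase at the kinetochore, was at 12.74, 12.71, 12.76 and 12.63 in ESCs, 12.48, 12.50, 12.33 and 12.57 after 1 week, and 12.11, 12.21, 12.17 and 12.26 after 2 weeks. Its 3 groups did not overlap. BUB1 fell by 0.24 in the first week (SE 0.07, adjusted p = 0.0111) and by 0.29 in the second (adjusted p = 0.00762), which made 1.44-fold between ESCs and 2-week EBs (adjusted p = 1.68e-05). BUB1B, the BubR1 protein that binds and inhibits CDC20, was at 9.65, 9.65, 10.05 and 10.08 in ESCs, 9.73, 9.69, 10.10 and 10.15 after 1 week, and 9.46, 9.85, 9.71 and 9.66 after 2 weeks. In ESCs and 1-week EBs alike, arrays 1 and 2 lay about 0.4 below arrays 3 and 4, and the differences from ESCs were 0.06 and -0.19 (adjusted p = 0.749 and 0.242). BUB3, the partner that brings BUB1 and BUB1B to kinetochores, was higher at 2 weeks by 0.27 (SE 0.08, adjusted p = 0.00879). Its other kept probes differed by 0.04, -0.06 and 0.31 there, and with the mean over probes BUB3 was not called. TTK, the kinase that starts checkpoint signalling, was lower at 2 weeks by 0.24 (SE 0.08, adjusted p = 0.0213), with groups that overlapped. MAD2L1, the MAD2 protein that binds CDC20, was at 12.11 ± 0.41 in ESCs and 12.45 ± 0.03 after 1 week (SD, n = 4), and its difference of 0.33 was not called (adjusted p = 0.0772). Its other kept probe differed by -0.08 at 1 week and 0.08 at 2 weeks, where the probe used differed by 0.26, so the sign of the 1-week MAD2L1 difference was not the same on both probes.

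The 4 genes of the chromosomal passenger complex, which corrects faulty attachments and acts again in cytokinesis, moved in opposite directions. AURKB, its kinase, was at 12.16, 12.17, 12.14 and 12.20 in ESCs, 11.96, 12.05, 11.99 and 11.86 after 1 week, and 11.62, 11.66, 11.84 and 11.78 after 2 weeks. The groups did not overlap, and AURKB fell by 0.21 in the first week (SE 0.07, adjusted p = 0.0226) and by 0.24 in the second (adjusted p = 0.0223), so that 2-week EBs lay 0.45 below ESCs (adjusted p = 8.09e-05). BIRC5, the survivin subunit, was at 11.01, 10.93, 10.91 and 10.83 in ESCs, 11.13, 11.13, 11.20 and 11.05 after 1 week, and 11.27, 11.27, 11.33 and 11.40 after 2 weeks. It stepped up over groups that did not overlap, by 0.21 and then 0.19 (SE 0.07 each, adjusted p = 0.0171 and 0.0453), and BIRC5 was the member that rose in both weeks. The other kept BIRC5 probe differed by 0.07 at 1 week, -0.07 at 2 weeks and -0.15 in the second week, so the rise was that of 1 probe. INCENP, the scaffold of the complex, fell by 0.29 in the second week (adjusted p = 0.00911) and CDCA8, the borealin subunit, was higher at 2 weeks than in ESCs by 0.25 (adjusted p = 0.00827).

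Among the centromere and kinetochore genes, CENPA, CENPE, CENPF and NDC80 rose in the first week, SPC25 fell and NUF2 was not called. CENPE, a kinesin that moves chromosomes to the spindle equator, was at 10.21, 10.18, 10.20 and 10.20 in ESCs, 10.90, 10.88, 10.63 and 10.59 after 1 week, and 10.77, 10.36, 10.49 and 10.39 after 2 weeks. Every EB array lay above every ESC array, and the rise of 0.56 in the first week (SE 0.10, adjusted p = 0.000356) was the largest of any member in that comparison. The other kept CENPE probe differed by 0.46 at 1 week and 0.33 at 2 weeks, in the same direction. CENPF, a large coiled-coil protein of the outer kinetochore, was at 11.38, 11.59, 11.69 and 11.77 in ESCs, 12.19, 12.001, 11.94 and 11.91 after 1 week, and 12.22, 12.11, 11.99 and 11.95 after 2 weeks. It also lay higher on all 8 EB arrays, by 0.40 (SE 0.10, adjusted p = 0.0035) and 0.46 (SE 0.10, adjusted p = 0.00104).

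CENPA, the histone H3 variant that marks centromeres, was at 10.35, 10.28, 10.04 and 10.10 in ESCs, 10.64, 10.53, 10.45 and 10.38 after 1 week, and 10.37, 10.41, 10.39 and 10.39 after 2 weeks. It rose by 0.31 in the first week (SE 0.08, adjusted p = 0.0066), and its 2-week difference from ESCs of 0.20 did not pass the test (adjusted p = 0.0523), although the groups did not overlap. The other kept CENPA probe differed by 0.29 and 0.15. NDC80, NUF2 and SPC25 are subunits of 1 complex, the one that grips microtubules at the kinetochore, and their courses differed. SPC25 was at 10.35, 10.21, 10.15 and 10.20 in ESCs, 9.99, 9.98, 9.96 and 9.99 after 1 week, and 10.03, 9.97, 9.95 and 9.78 after 2 weeks. It fell by 0.25 in the first week (SE 0.07, adjusted p = 0.00891) and lay 0.30 below ESCs at 2 weeks (adjusted p = 0.00241). NDC80 rose by 0.21 in the first week (adjusted p = 0.0225) and fell by 0.25 in the second (adjusted p = 0.0191), while NUF2 differed from ESCs by 0.07 and -0.04 (adjusted p = 0.616 and 0.754). The other kept NUF2 probe, detected on 7 arrays, differed by 0.41 and 0.05.

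Of the 8 spindle motor and microtubule genes, 4 were lower at 2 weeks than in ESCs, against 31.8% of all genes, and none was called higher by limma in any comparison, although PRC1 had an unadjusted p of 0.026 at 1 week, for a difference of 0.18 (adjusted p = 0.05). HMMR, a microtubule-binding protein of spindle assembly, was at 12.18, 12.16, 12.28 and 12.21 in ESCs, 11.99, 11.98, 12.08 and 12.05 after 1 week, and 11.53, 11.51, 11.62 and 11.67 after 2 weeks. Its groups did not overlap. HMMR fell by 0.18 in the first week (SE 0.06, adjusted p = 0.027) and by 0.44 in the second (SE 0.06, adjusted p = 0.000232), and at 2 weeks it lay 0.62 below ESCs (adjusted p = 1.34e-06). The other kept HMMR probe differed by -0.07 in the first week, -0.62 in the second and -0.69 between ESCs and 2-week EBs, so the larger part of the difference lay in the second week on both probes.

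KIF20A, a kinesin of the central spindle, was at 11.40, 11.35, 11.43 and 11.41 in ESCs, 11.46, 11.54, 11.44 and 11.51 after 1 week, and 11.19, 10.97, 11.20 and 11.22 after 2 weeks. The first-week difference was 0.09 (adjusted p = 0.303) and the second week brought a fall of 0.34 (SE 0.07, adjusted p = 0.00267) to below every ESC array. KIF23, another central spindle kinesin, fell by 0.21 in the second week (adjusted p = 0.0328), and KIF2C, a kinesin that takes microtubules apart at centromeres, was 0.34 lower at 2 weeks than in ESCs (adjusted p = 0.00385). The other kept KIF23 probe differed more, by -0.30 at 1 week, -0.65 at 2 weeks and -0.35 in the second week, where the probe used differed by 0.04, -0.17 and -0.21. KIF11, the motor that pushes spindle poles apart, TPX2, an activator of AURKA, NUSAP1 and PRC1, which bind and bundle microtubules, were not called in any comparison. Their differences from ESCs lay between -0.18 and 0.18. The other kept KIF11 probe differed by 0.07 at 2 weeks, where the probe used differed by -0.02, and the other kept NUSAP1 probe differed by 0.26 and 0.37 at 1 and 2 weeks, where the probe used differed by 0.03 and -0.01.

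The genes of chromosome separation and cytokinesis included 4 that were not called anywhere, CDC20, UBE2C, CDCA3 and TOP2A. CDC20, which activates the anaphase-promoting complex, was at 13.53, 13.63, 13.47 and 13.38 in ESCs, 13.56, 13.61, 13.58 and 13.56 after 1 week, and 13.32, 13.60, 13.32 and 13.30 after 2 weeks. The groups overlapped, with differences from ESCs of 0.08 and -0.12 (adjusted p = 0.449 and 0.218). TOP2A, the topoisomerase that untangles sister chromatids, was at 12.90, 12.98, 12.87 and 12.87 in ESCs, 13.02, 13.05, 12.96 and 13.02 after 1 week, and 12.99, 12.84, 12.93 and 12.96 after 2 weeks. Its groups overlapped too, its differences from ESCs were 0.11 and 0.03 (adjusted p = 0.165 and 0.725), and the 95% interval of the latter ran from -0.11 to 0.16. UBE2C, the ubiquitin-conjugating enzyme of that complex, differed from ESCs by 0.00 and -0.07, or by 0.02 and 0.12 on its other kept probe. CDCA3, which takes part in the turnover of mitotic regulators, differed by 0.04 and 0.00.

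ANLN, the anillin scaffold of the contractile ring, was at 10.27, 10.29, 10.27 and 10.33 in ESCs, 10.66, 10.61, 10.57 and 10.66 after 1 week, and 10.47, 9.86, 10.34 and 10.31 after 2 weeks. The 1-week arrays lay above all others, with a rise of 0.34 (SE 0.11, adjusted p = 0.0161) and a fall of 0.38 in the second week (SE 0.11, adjusted p = 0.0163), to which the second 2-week array contributed the lowest value. ECT2, the exchange factor that activates RhoA at the cleavage site, fell by 0.28 in the second week (adjusted p = 0.0144). PTTG1, the securin that restrains separase, fell by 0.20 in the first week (SE 0.07, adjusted p = 0.0181), and its other kept probe differed by -0.16. With replicate number as a block in ESCs and 1-week EBs, the PTTG1 difference was -0.20 and no longer called (adjusted p = 0.0532).

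**Figure D3:**
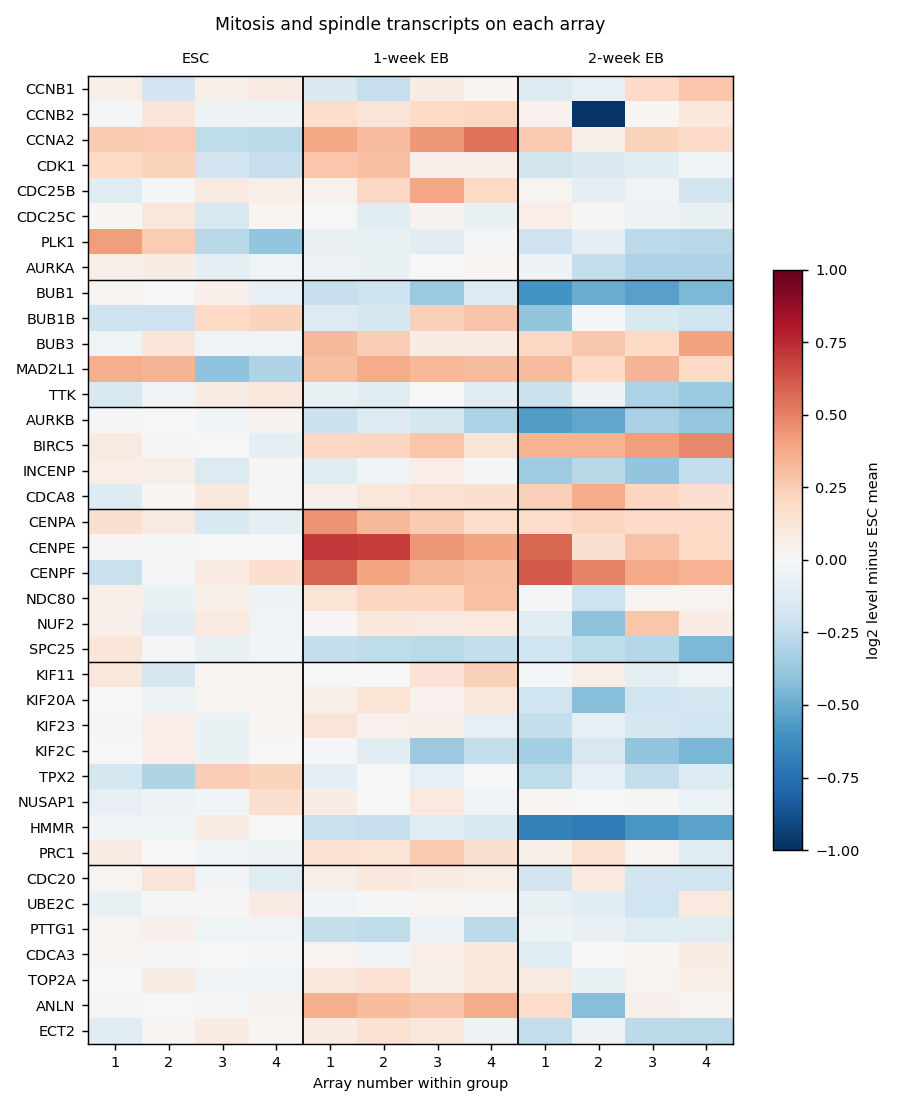
Level of each of the 38 members (rows, in blocks by role) on each of the 12 arrays (columns), as log2 minus the mean of the 4 ESC arrays, red for above and blue for below. Single values of most members stay within 0.5 of the ESC mean, HMMR, BUB1 and AURKB are blue on all 2-week arrays, and CENPE and CENPF are red on all EB arrays.

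By course over the 3 groups, 16 of the 38 members were not called in any comparison and 22 (57.9%) were called in at least 1, against 70.8% of all genes. BIRC5 rose in both weeks, and BUB1, AURKB and HMMR fell in both. CDC25B, NDC80 and ANLN rose in the first week and fell in the second. The mean was highest in 1-week EBs for 21 members, in ESCs for 12 and in 2-week EBs for 5, and it was lowest in 2-week EBs for 25 members. Many of these neighbouring means did not differ beyond the spread of their arrays, as the counts of calls above show. Neither the order of the means nor the course by week was counted over all genes. Whether they are particular to the members is therefore not known. The differences of the 16 members without a call ran from -0.38 to 0.33, and their 95% intervals from -0.78 to 0.65. For 14 of the 16 the interval lay within 1.5-fold in all 3 comparisons, as it did for 29 of all 38 members. These intervals were not recomputed with the array pairs as a block, so they may be too narrow.

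The mean over the 38 members of their deviation from each gene's average gave 1 value per array. It lay between -0.03 and 0.02 on the ESC arrays, between 0.07 and 0.09 on the 1-week arrays and between -0.10 and -0.06 on the 2-week arrays, so the 3 groups did not overlap. The same mean over all genes ran from -0.06 to -0.03 on the ESC arrays, from 0.02 to 0.03 on the 1-week arrays and from 0.01 to 0.02 on the 2-week arrays. Set against all genes, the members lay at 0.03 to 0.06 on both the ESC and the 1-week arrays, which overlapped fully, and between -0.11 and -0.08 on the 2-week arrays. By this measure the 2-week arrays lay below all other arrays here and without background correction, with each array scaled to its median and in the series matrix, the authors' own processed table. Before all genes were subtracted, the order of the group means was the same in these settings, but with median scaling the 2-week arrays ran from -0.42 to 0.04 and the ESC arrays from -0.11 to 0.10, and the groups overlapped. The lowest value there, and in the series matrix at -0.41, was that of the second 2-week array, which had the lowest mean intensity of the 12 (718, against 817 to 1090 on the others).

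**Figure D4:**
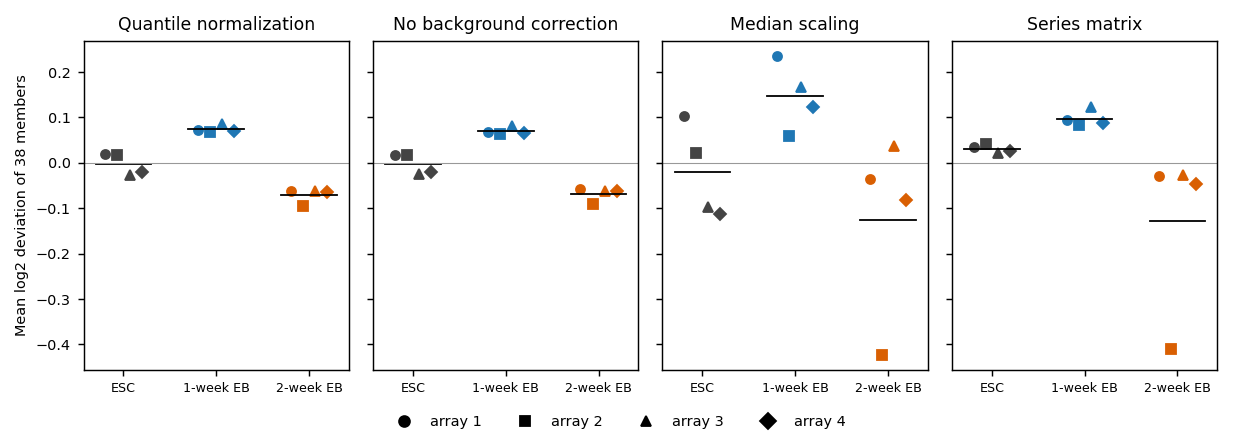
Mean deviation of the 38 members from each gene's average over 12 arrays (log2), per array and under 4 ways of scaling, with group means as lines. All genes are not subtracted here. The 1-week arrays lie highest and the 2-week arrays lowest under quantile normalization without overlap, and the second 2-week array stands apart at -0.42 under median scaling and at -0.41 in the series matrix.

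Median scaling moved the median of all genes by 0.13 at 1 week and by -0.11 in the second week. Relative to that median the members' median was 0.04 at 1 week, -0.13 at 2 weeks and -0.17 in the second week, against 0.06, -0.06 and -0.14 with quantile normalization. The split of the calls moved with it: at 1 week all 10 members called under median scaling were higher, where quantile normalization gave 8 higher and 5 lower, and at 2 weeks 2 were higher and 8 lower, where it gave 5 and 11. Of all genes, 31.1% were then higher and 13% lower at 1 week, and 27.2% and 25.4% at 2 weeks. The first-week falls of BUB1, AURKB, SPC25, HMMR and PTTG1 were not called under median scaling. In the series matrix 3 members were higher and 1 lower at 1 week, and 4 and 6 at 2 weeks, against 14.2% and 11.6% and then 23% and 17.7% of all genes. The matrix column of the second 2-week array correlated at 0.9378 with that array's log2 intensities, against at least 0.9976 for the other 11 arrays.

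The array pairs also stood apart in single members. This was not counted over all genes, so it is not shown to be particular to the members. The means of arrays 1 and 2 and of arrays 3 and 4 differed by more than 0.3, without overlap, for 6 members in ESCs, of which MAD2L1 (0.70), PLK1 (0.67), CCNA2 (0.52) and CDK1 (0.43) were higher on arrays 1 and 2 and TPX2 (-0.47) and BUB1B (-0.42) lower. In 1-week EBs only BUB1B did so (-0.41), and in 2-week EBs CCNB1 (-0.34) and NUF2 (-0.44). The median SD of a member over the 4 arrays was 0.08 for the ESC arrays, 0.06 at 1 week and 0.09 at 2 weeks.

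Other genes of the mitotic machinery were taken from lists of the same functions. For comparison with the counts below, 27.1% of all genes tested were higher than in ESCs and 24.8% lower at 1 week. At 2 weeks the shares of all genes were 30.7% higher and 31.8% lower. Of 32 tested kinetochore and centromere genes outside the members, 4 were higher and 10 lower than in ESCs at 1 week, and 2 were higher and 13 lower at 2 weeks, with medians of -0.07 and -0.17. CENPO, a subunit of the constitutive centromere network, fell by 0.73 in the first week (adjusted p = 0.000711), and SKA3, which couples kinetochores to microtubules, fell by 0.56 in the second (adjusted p = 0.000321). Of 28 spindle motor and microtubule genes, 6 were higher and 6 lower at 1 week, and 6 and 9 at 2 weeks. KIF2A, a kinesin that takes microtubules apart, rose by 0.95 in the first week (adjusted p = 0.0295). Of 11 cytokinesis genes, 6 rose in the first week, SEPTIN9 by 0.53 (adjusted p = 7.84e-05), and 2 were higher at 2 weeks. None of the 11 was called lower than ESCs by limma, where 7 at 1 week and 3 at 2 weeks had an unadjusted p under 0.05 in either direction. Of 20 cohesin and condensin genes, 6 were higher and 2 lower at 1 week and 5 and 4 at 2 weeks. STAG1, a cohesin subunit, rose by 0.79 in the first week (adjusted p = 4.06e-06). Of 14 anaphase-promoting complex genes, 2 were higher and 2 lower at 1 week and 2 and 3 at 2 weeks, and ANAPC13, a small subunit, was 1.10 higher at 2 weeks (adjusted p = 9.19e-09). Of 20 other cell cycle genes, 6 were higher and 3 lower at 1 week and 4 and 4 at 2 weeks, and MASTL, the kinase that protects CDK1 substrates from dephosphorylation, lay 0.71 below ESCs at 2 weeks (adjusted p = 1.03e-05). MKI67, the proliferation marker, had a dim probe, detected on 10 arrays, and differed from ESCs by 0.07 and 0.06 (SE 0.19, adjusted p = 0.779 and 0.796).

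Regulators of mitotic transcription and genes of the preceding S phase were set beside the members. Of 23 tested regulators, 13 (56.5%) were higher and 3 (13%) lower than in ESCs at 1 week, with a median of 0.28. At 2 weeks 14 (60.9%) were higher and 4 (17.4%) lower, with a median of 0.29. The shares of all genes were 27.1% and 24.8% at 1 week and 30.7% and 31.8% at 2 weeks. This list holds activators together with inhibitors of cyclin-dependent kinases. FOXM1, the factor that activates many of the members, rose by 0.33 in the first week (SE 0.07, adjusted p = 0.001) and lay 0.26 above ESCs at 2 weeks (adjusted p = 0.00451). CDKN1C, the p57 inhibitor of cyclin-dependent kinases, rose by 1.02 in the first week and by 1.10 in the second (adjusted p = 6.03e-07 and 3.22e-06), and CDKN1A, the p21 inhibitor, lay 1.05 above ESCs at 2 weeks (adjusted p = 5.4e-07). At 2 weeks 3 of the 23 regulators, these 2 inhibitors among them, were called at 2-fold or more, against 14.3% of all genes. None of the 38 members was. Of 49 DNA replication genes, 5 (10.2%) were higher and 13 (26.5%) lower at 1 week, and 5 (10.2%) and 24 (49%) at 2 weeks. Their medians were -0.05 and -0.18. GINS4, a subunit of the replicative helicase, fell by 1.02 in the first week (adjusted p = 6.82e-08), while RRM2, a ribonucleotide reductase subunit, rose by 0.96 (adjusted p = 0.0206).

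Markers of mesenchyme and matrix and of liver and yolk sac differed between the same arrays by far more than the members, in mean level. The mean level of 8 mesenchyme and matrix genes rose from 7.30 to 7.65 on the ESC arrays to 12.15 to 12.59 at 1 week and 13.06 to 13.11 at 2 weeks, and that of 7 liver and yolk sac genes from 6.06 to 6.31 to 11.33 to 11.39 and then 11.55 to 11.89. Of the other lists, 4 cardiomyocyte genes averaged 7.16 to 7.28 in ESCs, 10.73 to 10.86 at 1 week and 10.74 to 11.13 at 2 weeks. Averages of 6 neuron genes were 8.88 to 9.16, 9.12 to 9.53 and 9.47 to 10.36, so ESC and 1-week arrays overlapped. For 3 erythroid genes the averages were 5.11 to 5.26, 8.10 to 9.66 and, lower again, 6.74 to 8.135. Pluripotency markers, with 8 of 9 tested, averaged 13.56 to 13.65 in ESCs, 13.42 to 13.54 at 1 week and 13.11 to 13.20 at 2 weeks. By these markers the ESC arrays fitted their label, and the 2-week arrays still carried pluripotency transcripts beside those of differentiated cells. The part of the changing mix of cells in the members' differences was not tested.

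**Figure D5:**
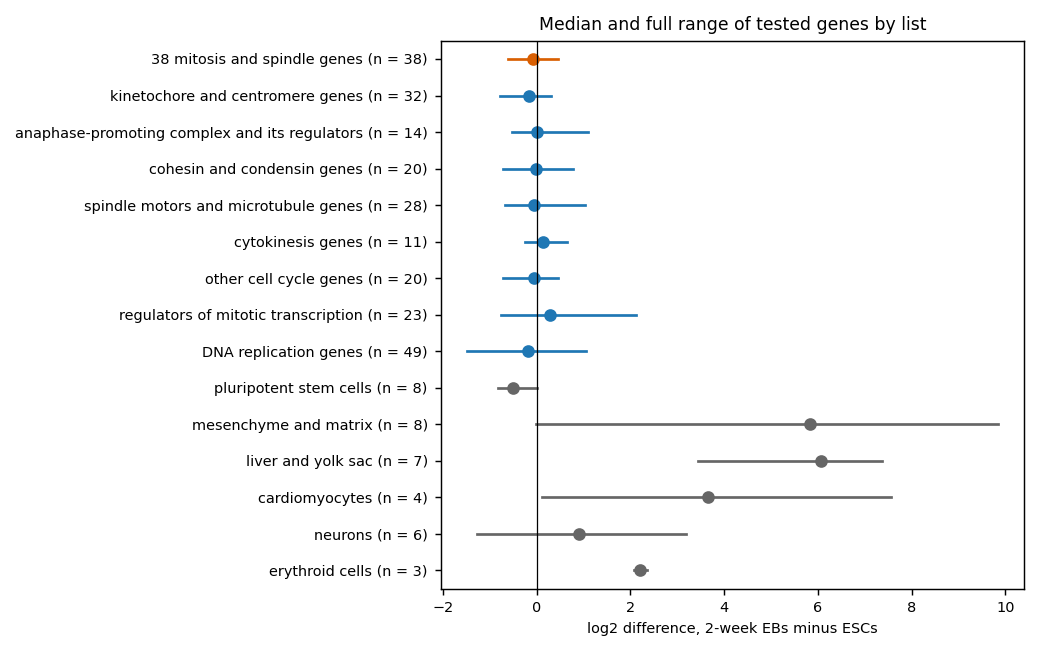
Median (point) and full range (line) of the log2 difference between 2-week EBs and ESCs over the tested genes of each list, with the 38 mitosis and spindle genes in orange, lists of related cell cycle genes in blue and cell type markers in grey. The members run from -0.62 to 0.46, while the liver and yolk sac markers have a median of 6.07 and the mesenchyme and matrix markers one of 5.83.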

How the data were processed

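RNA of 3 groups of 4 samples of 1 cell line was measured on 1-colour bead arrays. The authors deposited linear intensities, 1 for each probe on each array, and a detection p-value beside each, per the file headers. The scanner software and its background handling are not given in the sources used here. The deposited series matrix holds log2 values with a median of 6.68 in every column. How they were made is not given in the sources used here, and they served as an alternative.

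Intensities were corrected and normalized with neqc of limma 3.58.1 in R 4.3.3 (offset 16, quantiles, log2), which shrinks differences of dim probes and removes shifts common to most genes. Probes with a detection p under 0.01 on at least 4 arrays were kept (15921 of 48803). Symbols came from the platform annotation, where 27578 probes had 1 gene symbol, 13 had several and 21212 are unnamed here. The brightest kept probe stood for its gene. Values of other kept probes are given beside the 15 members that have them, though not for every comparison. Same-numbered arrays of ESCs and 1-week EBs deviated together (4 of 4 correlations over 0.1, from 0.138 to 0.245), which is a pairing from the data and not from the labels, and 4 of these 8 arrays correlated best with their own number. With 2-week EBs, 0 of 4 same-numbered correlations were over 0.1 for ESCs and 1 of 4 for 1-week EBs. All 12 arrays entered 1 fit with lmFit and eBayes (prior degrees of freedom 4.31), with two-sided tests and Benjamini-Hochberg adjustment over 10562 genes. The number of arrays limits the precision.

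The members, lists and alternatives were chosen with earlier results of these data known. Values on every array are given for CCNB1, CDK1, PLK1, AURKB, BUB1B, CENPA, TOP2A and CDC20 and for the 3 called members with the largest rises and falls of each comparison. From the other lists, FOXM1 and MKI67 and at most the 2 called genes with the largest difference are named, and MYBL2 was not tested. Motifs were searched in RefSeq promoter windows.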

Additional observations from a re-analysis of the deposited data

Results flagged for a closer look

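In a group of 4 arrays, 1 array stood far from the other 3 for 8 of the 114 combinations of a member and a group, where chance gives about 1 in 20, or 5.7. The measure is the gap to the nearest other array as a share of the group's whole range, and it passed Dixon's 95% critical value for 4 samples. The second 2-week array accounted for 5 of them: CCNB2 (0.917, at 11.61 against 12.61 to 12.70), KIF20A (0.898, at 10.97 against 11.19 to 11.22) and NDC80 (0.836, at 10.48 against 10.68 to 10.72) were low there, and CDC20 (0.922, at 13.60 against 13.30 to 13.32) and ECT2 (0.894, at 12.48 against 12.26 to 12.29) were high. That array also had the lowest mean intensity and the fewest detected probes of the 12, at 718 and 14045, and its part in these values was not tested. The second ESC array was low for CCNB1 (0.915, at 10.87 against 11.12 to 11.14) and high for BUB3 (0.937, at 13.13 against 12.97 to 12.98). The third 1-week array was high for PTTG1 (0.887, at 13.45 against 13.25 to 13.27).

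For 11 members the difference from ESCs was not the same at 2 weeks as at 1 week, by limma's test of the second week against the first. That is 28.9% of the members, beside 26.5% of all genes. The difference at 2 weeks minus that at 1 week was 0.192 for BIRC5. It was negative for the other 10: -0.439 for HMMR, -0.381 for ANLN, -0.339 for KIF20A, -0.287 for BUB1, -0.286 for INCENP, -0.279 for CDC25B, -0.277 for ECT2, -0.253 for NDC80, -0.238 for AURKB and -0.211 for KIF23. BIRC5 was called at an adjusted p of 0.0453 on 1 of its 2 kept probes, the closest of the 11 to the threshold.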

How the results depend on the processing

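No called member changed direction in any of the alternatives (25 at 1 week, 24 for each other comparison), and none was called at 2-fold under any of them by limma. CENPE at 1 week and AURKB, BIRC5, BUB1, CENPF and HMMR at 2 weeks were called under all of them, and no second-week call was. For BIRC5 none of the alternatives took its other kept probe alone, which differed by -0.07 at 2 weeks where the probe used differed by 0.40. The largest difference of any setting was 1.46, in size, for NDC80 in the series matrix, without a call. Some members not called in the main fit were called in alternatives. At 1 week PLK1 was lower with arrays 1 and 2 alone and higher with arrays 3 and 4 alone. PRC1 was higher at 1 week with median scaling, without background correction and with the mean of probes, among other settings. NUSAP1 was higher at 1 and 2 weeks with the mean of probes, and MAD2L1 without ESC array 1 or 2. Same-numbered arrays deviated together in ESCs and 1-week EBs, as arrays of partner numbers also did (0.121 to 0.251). With 2-week EBs the same-numbered arrays did not (from -0.0856 to 0.135). With a replicate block over all arrays the counts were 8 and 5, 6 and 11, and 0 and 10. With a replicate block over ESCs and 1-week EBs alone, chosen after seeing the data, they were 8 and 4, and of the calls of that comparison this block ended that of PTTG1.

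At 1 week, 8 higher members became 3 in the series matrix, 4 with array pairs as a random block (consensus correlation 0.544), 1 with pairs averaged, 3 with arrays 1 and 2, 13 with arrays 3 and 4, and 0 at 2-fold. The 5 lower ones became 0 with median scaling, 1 in the matrix, 0 with the pair block, 0 with pairs averaged, 3 with arrays 1 and 2, and 0 at 2-fold. The median became 0.172 with median scaling and 0.043 in the matrix.

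At 2 weeks, 5 higher members became 2 with median scaling, 2 with the pair block, 2 with pairs averaged and 0 at 2-fold. The 11 lower ones became 6 in the matrix, 6 with the pair block, 3 with pairs averaged and 0 at 2-fold. The median became -0.127 with median scaling, -0.171 in the matrix, -0.043 with the mean of probes, -0.094 with arrays 1 and 2 and -0.045 with arrays 3 and 4.

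In the second week the 1 higher member was not called with median scaling, the matrix, no detection filter, the mean of probes, the replicate block, the pair block, pairs averaged, arrays 1 and 2 or the 2-fold minimum (0 each), and arrays 3 and 4 gave 2. The 10 lower ones became 1 in the matrix, 2 with the pair block, 0 with pairs averaged, 5 with arrays 1 and 2, 15 with arrays 3 and 4, and 0 at 2-fold. The median became -0.29 with median scaling, -0.114 in the matrix and -0.114 with arrays 1 and 2. The cause of these shifts was not tested. The settings that average or leave out arrays also hold fewer samples, and the part of this was not tested either.

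Leaving out 1 array gave 5 to 9 higher and 3 to 5 lower members at 1 week (median 0.05 to 0.094), 5 to 7 and 8 to 12 at 2 weeks (-0.095 to -0.056), and 0 to 1 and 7 to 12 in the second week (-0.188 to -0.136). At 1 week there were 5 higher without ESC array 4, and 3 lower without ESC array 4 or 1-week array 2 or 4. The second-week call of BIRC5 was lost without ESC array 2 or 3, 1-week array 1, 2 or 4, or 2-week array 1, 3 or 4. Dim probes such as that of MKI67 limit what can be measured.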

Other observations

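In the second week of EB culture, fewer genes of 4 related lists outside the 38 members were called than between EBs and ESCs, as held for all genes tested (26.5%, against 51.9% at 1 week and 62.4% at 2 weeks). Of 32 kinetochore and centromere genes 1 rose and 4 fell, and of 28 spindle motor and microtubule genes 1 rose and 5 fell, KIF15 by 0.42 (adjusted p = 0.028). Of 20 cohesin and condensin genes 5 fell, SGO2, which protects centromeric cohesin, by 0.39 (adjusted p = 0.00574), and none was called higher by limma, with 6 at an unadjusted p under 0.05 in either direction. Of 49 DNA replication genes 3 rose and 8 fell, DUT, which removes dUTP, by 0.51 (adjusted p = 0.00062). All genes tested in that comparison had a median of -0.01, and these lists had medians of -0.06, -0.01, -0.07 and -0.11 in the order given.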
